A study of Mus musculus with 6 samples.

Results

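The Ifi200 genes, a family of interferon-inducible genes that lie side by side on mouse chromosome 1, were followed in Tregs, the regulatory T cells that restrain immune responses. The 10 genes Aim2, Ifi203, Ifi204, Ifi206, Ifi207, Ifi208, Ifi209, Ifi213, Ifi214 and Mndal were selected by symbol out of 55573 genes listed. They were picked on values that included the difference between these same knockout and wild-type libraries, so their differences are given as a description and not as a test. RNA was counted in 3 libraries of Nfkb2-/- Tregs and 3 libraries of wild-type Tregs, all sorted from spleens of bone marrow chimeras that the labels call bi-parental, and all rested in medium without further treatment before lysis. Nfkb2 is the gene for p100, an NF-kB family precursor that is cut to p52. The labels give neither age, strain nor sex of donors or hosts, do not say which cells of the host remained, and do not say whether a library came from 1 animal or several, or whether both genotypes came from the same hosts; p-values therefore measure the spread between these libraries.

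Proteins of the family usually join an N-terminal pyrin domain, which binds other pyrin domains, to a C-terminal HIN-200 domain, which binds DNA. Aim2 is the best known of them: it binds double-stranded DNA in the cytosol and recruits the adaptor ASC to activate caspase-1 in an inflammasome, and it is also known to act in Tregs. Ifi204 (p204) is known as a DNA sensor upstream of STING in mouse macrophages, and many members are switched on by interferon through interferon-stimulated response elements (ISRE) in their promoters.

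The 10 genes spanned 592 kb of chromosome 1 (173350879 to 173942672, GRCm38), and 4 further annotated genes of the family, Ifi203-ps, Ifi211, Ifi202b and Ifi205, lay within or beside them. Aim2, Ifi209 and Ifi208 are on the plus strand and the other members on the minus strand. Exons of 8 members overlapped no other annotated gene on either strand. The exceptions were Mndal, whose annotation runs across Ifi211 into Ifi203 and shares 155 of its 3628 exon bases with Ifi203 and the pseudogene Gm38050, and Ifi203, which shares 37 of 6706 exon bases with Mndal. The longest annotated open reading frames ran over 354 codons in Aim2, 393 in Ifi214, 420 in Ifi209, 538 in Mndal, 586 in Ifi213, 588 in Ifi208, 619 in Ifi204, 871 in Ifi203, 921 in Ifi206 and 978 in Ifi207.

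**Figure D1:**
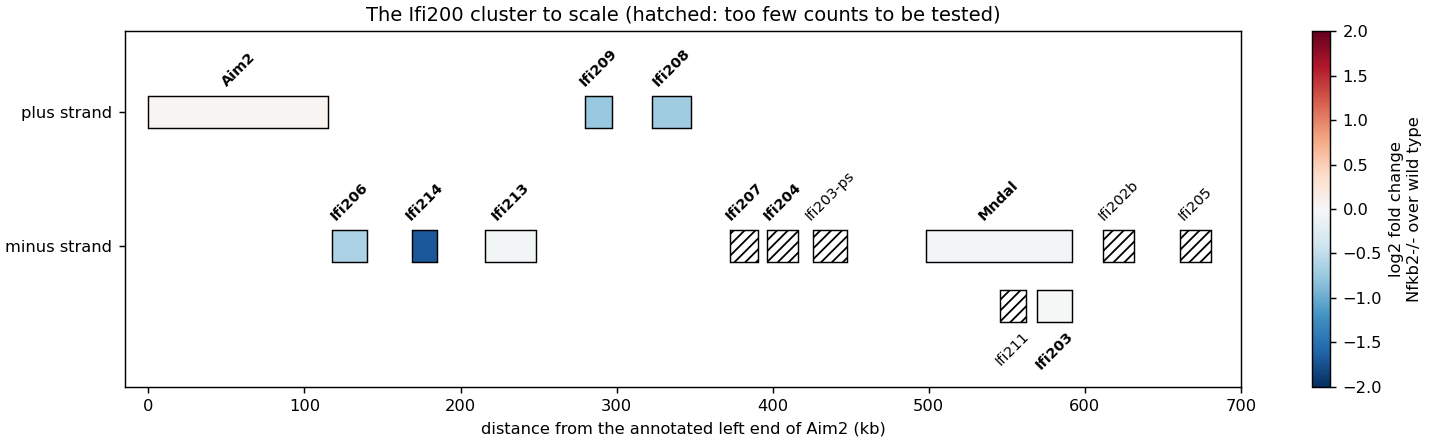
Gene bodies of the Ifi200 cluster to scale, by strand, at their distance in kb from the left end of Aim2, with members in bold. Colour gives the log2 fold change of Nfkb2-/- over wild type; Ifi214 is the darkest blue, at -1.70, and Aim2, Ifi213, Mndal and Ifi203 are near white. Ifi211 and Ifi203 are drawn below Mndal because their annotated spans overlap it.

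A short ISRE core recurred in the promoters of the family and is shown here so that the members can be compared letter by letter. Windows of 250 bases before to 50 bases after the RefSeq start site (GRCm38.p6) were matched for 9 of the 10 members; Ifi204 was not among them. The ISRE pattern, GAAA followed by any 2 bases and GAAA again, searched on both strands, was found in 7 of these 9 members and in 3.44% of the 32851 windows of all genes. In all 7 the same 10 letters stood on the strand of the gene, and these exact letters were present in 16 of the 32851 windows (0.0487%), 7 of them in this family. The core is in capitals below, with 15 bases either side, each line 5′ to 3′ on the gene's strand.
Ifi206, minus strand, chr1:173491334-173491373: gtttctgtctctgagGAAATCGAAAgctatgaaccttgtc
Ifi208, plus strand, chr1:173673592-173673631: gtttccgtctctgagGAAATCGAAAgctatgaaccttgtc
Ifi213, minus strand, chr1:173599321-173599360: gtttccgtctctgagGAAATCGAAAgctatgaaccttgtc
Ifi214, minus strand, chr1:173536012-173536051: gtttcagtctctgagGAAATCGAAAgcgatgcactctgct
Ifi207, minus strand, chr1:173741826-173741865: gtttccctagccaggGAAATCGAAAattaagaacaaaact
Mndal, minus strand, chr1:173880199-173880238: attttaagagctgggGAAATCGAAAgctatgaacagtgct
Ifi203, minus strand, chr1:173942503-173942542: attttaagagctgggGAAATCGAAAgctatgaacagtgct

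The first base of the core lay 79 bases before the start site in Ifi214, 73 in Ifi213, 58 in Ifi208, 41 in Ifi207, 40 in Ifi206, 36 in Mndal and 35 in Ifi203. Mndal and Ifi203 had identical letters over the 40 bases shown, and so did Ifi208 and Ifi213. Ifi209 held no ISRE match, but its window aligned with that of Ifi214 and carried a near copy at the same distance of 79 bases, with the single substitution G1T counted from the first base of the Ifi214 core. The aligned stretch is shown with the altered core in capitals.
Ifi209, plus strand, chr1:173630765-173630804: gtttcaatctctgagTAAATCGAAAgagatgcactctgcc

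The whole windows of Ifi214 and Ifi209 are printed because their upstream sequence was more alike than that of any other pair of the 9 members, at 287 of 300 bases (95.7%). The ISRE core of Ifi214 is in capitals.
Ifi214, minus strand, chr1:173535908-173536207: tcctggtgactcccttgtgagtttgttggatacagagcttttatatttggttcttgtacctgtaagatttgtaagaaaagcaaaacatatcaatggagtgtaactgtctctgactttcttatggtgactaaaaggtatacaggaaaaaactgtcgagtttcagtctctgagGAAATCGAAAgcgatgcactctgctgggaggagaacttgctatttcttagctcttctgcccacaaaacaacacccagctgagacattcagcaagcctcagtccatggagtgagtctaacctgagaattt
Ifi209, plus strand, chr1:173630609-173630908: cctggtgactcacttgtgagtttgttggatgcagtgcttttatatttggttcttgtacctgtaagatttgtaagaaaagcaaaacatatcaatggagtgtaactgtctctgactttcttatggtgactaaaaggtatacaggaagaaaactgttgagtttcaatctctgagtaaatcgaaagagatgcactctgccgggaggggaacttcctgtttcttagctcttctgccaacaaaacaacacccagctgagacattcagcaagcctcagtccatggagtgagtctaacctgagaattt

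By promoter sequence the members fell into 3 groups, and Ifi207 and Aim2 stood alone. Ifi206, Ifi208 and Ifi213 were 87.7% to 94.0% identical to each other, Mndal and Ifi203 were 94.0% identical, and of the 36 pairs 5 lay above 80%, the next at 64.3% and the lowest at 49.7%. The interferon-gamma activated pattern TTCNNNGAA, present in 8.3% of all windows, was not found in a member's window on either strand. Nor was the kB consensus bound by NF-kB, searched as GGGRNWYYCC (R is A or G, W is A or T, Y is C or T) and present in 4.51%. Looser kB forms were not searched. The Ifi209 window holds gggaacttcc, which departs from this consensus only at the letter W. A match is a run of letters in this window and not a measured binding site.

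**Figure D2:**
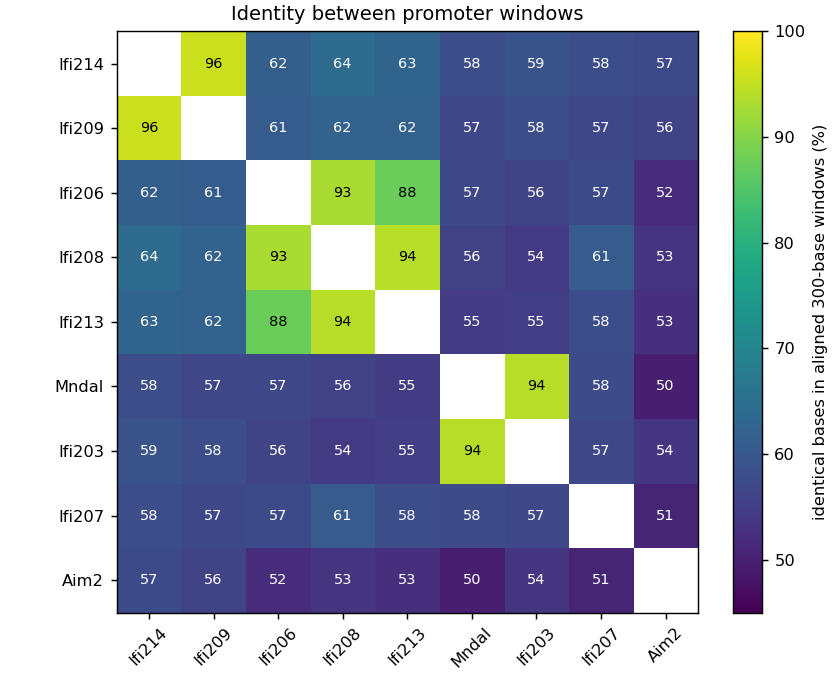
Identical bases, in percent, between the aligned 300-base promoter windows of 9 members, taking the more alike window where a gene has several. The bright blocks are Ifi214 with Ifi209 (95.7%), Ifi206 with Ifi208 and Ifi213 (87.7% to 94.0%), and Mndal with Ifi203 (94.0%).

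Library totals ran from 12005273 to 17278521 counts. The unit of level is CPM, which divides counts by the library size after TMM scaling. The targeted gene Nfkb2 was at 288 ± 31.3 CPM in Nfkb2-/-, against 553 ± 6.99 CPM in wild type (SD, n = 3 per genotype). Its log2 fold change was -0.94 (edgeR adjusted p = 0.0203), so reads of the gene were fewer but present in the knockout libraries. Whether these reads came from the targeted allele or from wild-type cells was not tested. The 6 Treg markers (Foxp3, Il2ra, Ctla4, Ikzf2, Cd3e and Cd4) summed to 3815 to 4264 CPM in Nfkb2-/-, against 3105 to 4690 CPM in wild type. Of these, 0 were called by edgeR or limma-voom and 1 higher by DESeq2, and 2 had an unadjusted p under 0.05 (edgeR). Single markers differed in opposite directions without overlap. Ikzf2 had 722, 794 and 823 CPM in Nfkb2-/-, against 517, 539 and 436 CPM in wild type. Il2ra had 410, 413 and 496 CPM in Nfkb2-/-, against 525, 560 and 635 CPM in wild type. The 4 Y-linked genes on the list (Uty, Kdm5d, Eif2s3y and Ddx3y) summed to 40.1 to 275 CPM in Nfkb2-/-, against 465 to 498 CPM in wild type, so sex and genotype cannot be told apart in any difference below. Wild-type replicate 1 stood apart: its log2 CPM correlated with those of the other libraries at 0.941 to 0.955, across genes, and all other pairs at 0.968 to 0.991. For most tested members and for several other genes, results are therefore given with and without it.

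Of the 10 members, 8 had enough counts to be tested, and each of these 8 was above the count filter's level in every library of both genotypes. In bulk RNA, fewer cells of a type and less RNA per cell cannot be told apart, which holds for every level below. Per kb of merged exons, Mndal had the highest mean level, at 43.4 ± 2.33 CPM per kb in Nfkb2-/- and 45.1 ± 11.5 in wild type (SD, n = 3 per genotype). In Nfkb2-/- it was followed by Aim2 at 18.9 ± 0.884, Ifi209 at 15.3 ± 2.35 and Ifi203 at 15.2 ± 2.21 CPM per kb. In wild type Ifi209 had 25.7 ± 8.5, Aim2 18.3 ± 0.582 and Ifi203 15.3 ± 3.71 CPM per kb. In wild-type replicate 1 Ifi209 stood above Mndal, at 35.5 against 31.9 CPM per kb. The levels of Ifi209 and Ifi203 could not be told apart beyond their spread in Nfkb2-/-. Lower down stood Ifi213 (5.38 ± 1.2 in Nfkb2-/-, 5.61 ± 2.32 in wild type), Ifi206 (4.47 ± 0.903 and 6.89 ± 1.96) and Ifi208 (2.38 ± 0.779 and 3.9 ± 0.705 CPM per kb, in the same order), where Ifi213 and Ifi206 overlapped in both genotypes. Ifi214 came last of the tested genes at 0.289 ± 0.038 in Nfkb2-/- and 0.937 ± 0.296 CPM per kb in wild type. Exons of all annotated isoforms were merged, so a gene with long rarely used exons has its level per kb understated.

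Ifi214, a pyrin and HIN-200 family gene of the cluster's left side, was the member with the largest difference. It had 2.07, 2.67 and 2.28 CPM in Nfkb2-/- replicates 1 to 3, against 10.2, 5.46 and 7.14 CPM in wild-type replicates 1 to 3. The genotypes did not overlap, and the highest wild-type value was that of replicate 1. These levels rest on 25, 38 and 28 counts in Nfkb2-/- and on 189, 69 and 85 counts in wild type. The mean in Nfkb2-/- was 30.8% of that in wild type, a log2 fold change of -1.70 (SE 0.305, edgeR). Ifi214 passed the threshold of the fit across all genes (Benjamini-Hochberg adjusted p under 0.05); it did not pass with the replicate number as a block (log2 fold change -1.65), in limma-voom, with the summed level of Y-linked genes as a covariate (-1.58), or without Nfkb2-/- replicate 1, 2 or 3 or wild-type replicate 2 or 3. Without wild-type replicate 1 it passed, at -1.42.

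Ifi209 (also named Pyhin1), whose promoter and transcripts are most like those of Ifi214, was lower in every Nfkb2-/- library too. It had 63.9, 49.5 and 49.4 CPM in Nfkb2-/- replicates 1 to 3, against 126, 72.6 and 75.1 CPM in wild-type replicates 1 to 3. The groups did not overlap, and wild-type replicate 1 was again far above the others. The log2 fold change was -0.75 (SE 0.234, edgeR), which did not pass the threshold, and was -0.44 without wild-type replicate 1. Of the 50-base windows of Ifi209 transcripts, 33.4% also occur in Ifi214, which makes the split of counts between them uncertain. Added together, the 2 genes had 66.0, 52.2 and 51.7 CPM in Nfkb2-/- against 136, 78.0 and 82.2 CPM in wild type, again without overlap.

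Ifi206 and Ifi208, of the second promoter group, had lower mean levels in Nfkb2-/- but came close to or into the wild-type range. Ifi208, which carries the older name Pydc3, had 17.2, 9.78 and 10.5 CPM in Nfkb2-/-, against 17.4, 19.5 and 24.6 CPM in wild type, so Nfkb2-/- replicate 1 lay just below the lowest wild-type value. Its log2 fold change was -0.71 (SE 0.258, edgeR), which did not pass the threshold. With each library left out it ran from -1.01, without Nfkb2-/- replicate 1, to -0.56, and was -0.82 without wild-type replicate 1. Ifi206 had 16.8, 12.4 and 11.7 CPM in Nfkb2-/-, against 23.8, 14.2 and 25.1 CPM in wild type. Here the genotypes overlapped, since wild-type replicate 2 was below Nfkb2-/- replicate 1, and the log2 fold change was -0.63 (SE 0.258, edgeR). This value did not pass the threshold, and was -0.525 without wild-type replicate 1.

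Ifi213 (older name Pydc4), the third gene of that promoter group, had nearly equal means in the 2 genotypes and a wide spread. It had 45.8, 34.8 and 29.7 CPM in Nfkb2-/-, against 20.5, 43.8 and 50.7 CPM in wild type. The wild-type values enclosed all Nfkb2-/- values, with wild-type replicate 1 the lowest library of all. The log2 fold change was -0.06 (SE 0.326, edgeR), and -0.36 without wild-type replicate 1. Of the 50-base windows of Ifi213 transcripts 13.6% also occur in Ifi208, and of those of Ifi208 18.1% occur in Ifi213. Ifi206 shares 11.1% of its windows with Ifi208 and 10.9% with Ifi213. The split of counts among these genes is therefore uncertain too.

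Mndal and Ifi203, the neighbours with near-identical promoters at the cluster's right side, varied together from library to library. Mndal, named for its likeness to the myeloid cell nuclear differentiation antigen, had 167, 151 and 154 CPM in Nfkb2-/-, against 116, 183 and 192 CPM in wild type. Ifi203, a nuclear protein gene of the family, had 119, 94.4 and 92.9 CPM in Nfkb2-/-, against 73.6, 117 and 116 CPM in wild type. In both genes wild-type replicate 1 was the lowest of the 6 libraries and the genotypes overlapped. Log2 fold changes were -0.06 (SE 0.193) for Mndal and -0.00073 (SE 0.202) for Ifi203, and -0.25 and -0.19 without wild-type replicate 1 (edgeR). Some 6.19% of the 50-base windows of Mndal occur in Ifi203 transcripts, 7.96% in Ifi211 and 19.6% in any other gene.

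Aim2, the DNA-binding receptor of the inflammasome, was the steadiest member. It had 69.3, 63.1 and 66.0 CPM in Nfkb2-/-, against 61.8, 64.6 and 65.7 CPM in wild type, from 782 to 1145 counts a library. All 6 values lay within a narrow band, and the lowest was again that of wild-type replicate 1. The log2 fold change was 0.05 (SE 0.111, edgeR), and with each library left out in turn it ran from 0.01 to 0.08. Its transcripts shared no 50-base window with another gene of the family.

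Ifi204 and Ifi207 were close to undetected in these cells. Ifi204, the macrophage DNA sensor gene, had 4, 5 and 6 counts in Nfkb2-/- and 6, 11 and 2 counts in wild type. Ifi207 had 4, 4 and 5 counts in Nfkb2-/- and 2, 21 and 5 counts in wild type, where replicate 2 alone held most of them. Neither passed the count filter, and a difference between genotypes was not detectable at this depth. Of the 4 other annotated genes, Ifi211 had 18 counts in all Nfkb2-/- libraries together and 23 in all wild-type libraries together, Ifi205 had 8 and 6, and Ifi203-ps had 7 and 4, in the same order. Ifi202b, a gene known from lupus-prone NZB mice, had 0 counts in all 6 libraries, which allows a level of up to 0.252 CPM (3 counts) in the library with the smallest effective size.

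**Figure D3:**
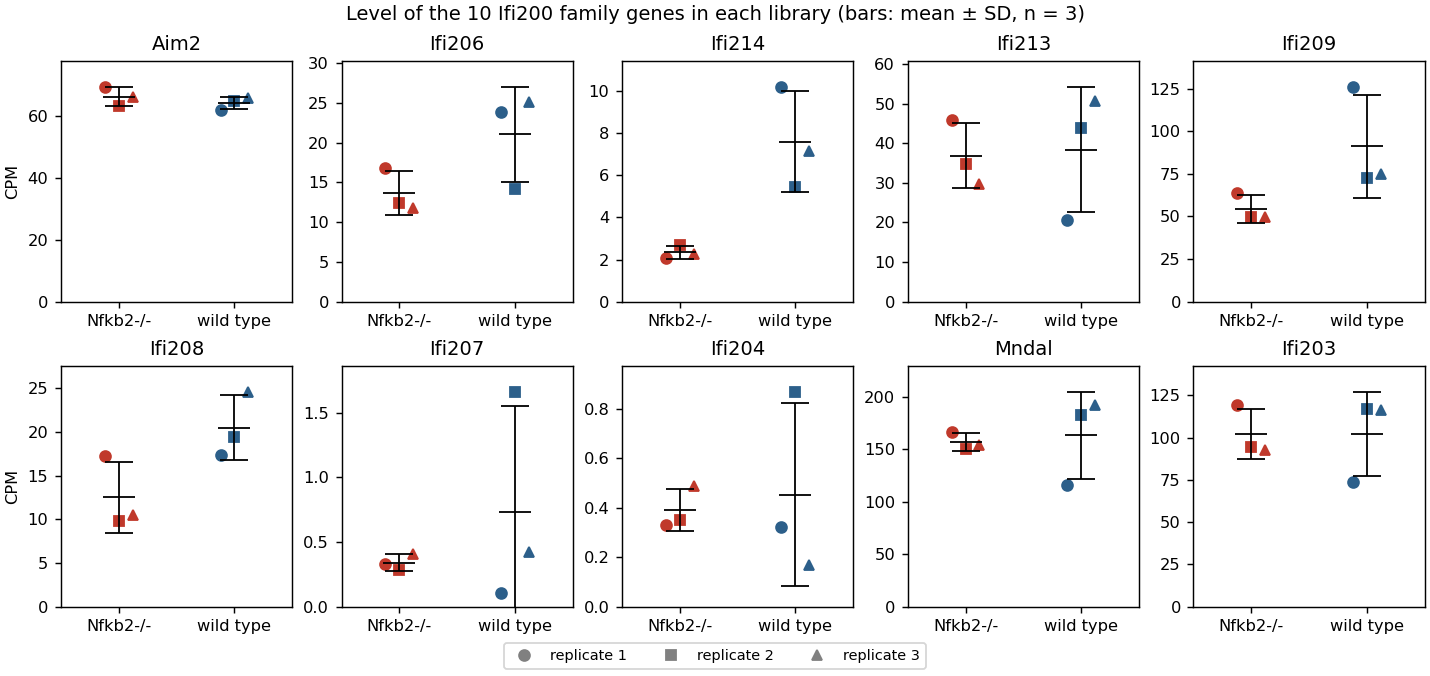
CPM of the 10 members in each Nfkb2-/- (red) and wild-type (blue) library, with the replicate number as the symbol and the mean ± SD (n = 3) as bars; each panel has its own scale from 0. Ifi214, Ifi209 and Ifi208 do not overlap between genotypes, and wild-type replicate 1 is the highest library for Ifi214 and Ifi209 and the lowest for Ifi213, Mndal and Ifi203.

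Counted over the family, 1 of the 8 tested members was called lower in Nfkb2-/- and 0 were called higher, where 0.405% and 1.01% of all 13347 genes tested were called in those directions (edgeR). DESeq2 also called 1 lower and 0 higher, limma-voom and the fit with the replicate block called 0 in either direction. Of all genes tested, DESeq2 called 1.89% lower, limma-voom 0.33% and the fit with the block 0.697%. An unadjusted p under 0.05 was found for 4 of the 8 members and for 13.6% of all genes tested (edgeR). In 3 of the 8 the Nfkb2-/- and wild-type values were fully apart in CPM, all of them lower in Nfkb2-/-, where 9.9% of all genes tested were apart in that direction. Since the members were picked with this comparison known, nothing is read from these counts. The median log2 fold change was -0.34 over the 8 members and -0.03 over all genes tested, and 7 of the 8 were negative. Without wild-type replicate 1, 1 member was called lower, beside 4.44% of all genes.

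**Figure D4:**
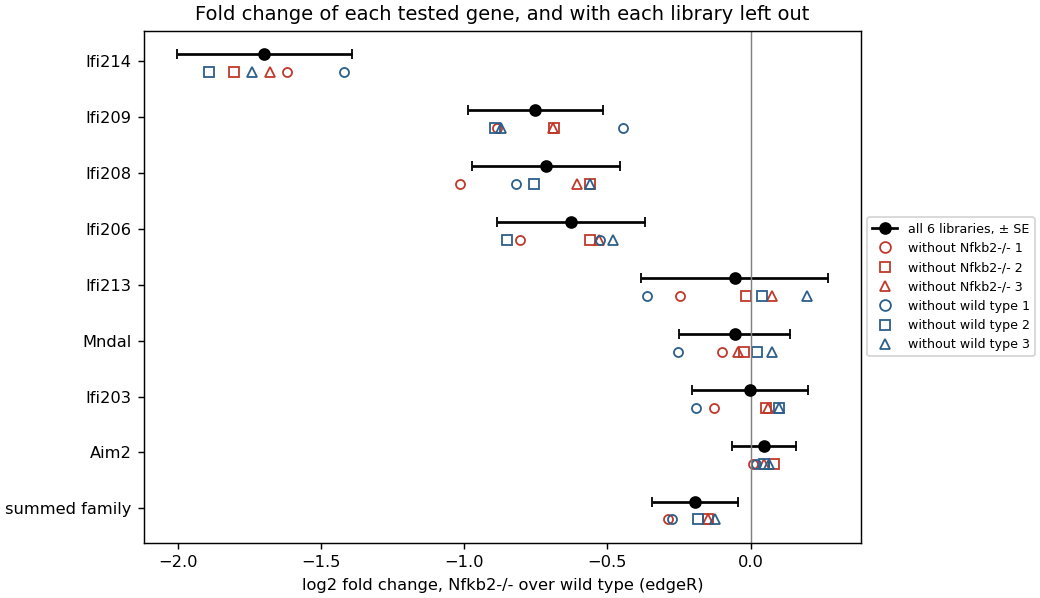
Log2 fold change (Nfkb2-/- over wild type, edgeR) of the 8 tested members and of the 10 members added into 1 row: black points with SE use all 6 libraries, open symbols leave out 1 library each. Ifi214, Ifi209, Ifi208 and Ifi206 stay below 0 in each case, while Ifi213, Mndal and Ifi203 lie on both sides of 0 depending on the library left out.

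The family was also summed. Added over the libraries of a genotype, Mndal and Ifi203 gave the most counts in both, followed by Aim2 in Nfkb2-/- and by Ifi209 in wild type. In wild-type replicate 1 Ifi209 gave the most, with 2336 counts against 2147 for Mndal and 1364 for Ifi203. The 10 genes together had 502, 418 and 418 CPM in Nfkb2-/-, against 449, 522 and 557 CPM in wild type. These values overlapped, with a log2 fold change of the sum of -0.19 (SE 0.149, edgeR), which did not pass the threshold. Without wild-type replicate 1 the log2 fold change of the sum was -0.28. The sum depends less than single genes on how reads were divided among similar members.

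The make-up of the family's counts, a measure that does not depend on library scaling, was also set side by side. Ifi214 supplied 0.533% ± 0.114 of the 10 genes' counts in Nfkb2-/- and 1.53% ± 0.649 in wild type (SD, n = 3 per genotype). Ifi209 supplied 12.1% ± 0.517 in Nfkb2-/- and 18.5% ± 8.29 in wild type, where the large spread came from replicate 1, at 28.0% (95% Wilson interval 27.1 to 29.0, counting error only), against 13.9% and 13.5% in replicates 2 and 3 (intervals 13.1 to 14.7 and 12.7 to 14.3). Shares of Ifi208 were 2.76% ± 0.585 in Nfkb2-/- and 4.01% ± 0.363 in wild type. Mndal took 35.4% ± 1.93 in Nfkb2-/- and 31.7% ± 5.17 in wild type. Wild-type replicate 1 was at 25.8% for Mndal, while replicates 2 and 3, at 34.9% and 34.5%, lay within the Nfkb2-/- range of 33.25% to 36.94%. Aim2 took 14.9% ± 1.01 in Nfkb2-/- and 12.6% ± 1.0 in wild type. The 3 Nfkb2-/- libraries were close to each other in make-up, and wild-type replicate 1 differed from the other wild-type libraries.

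**Figure D5:**
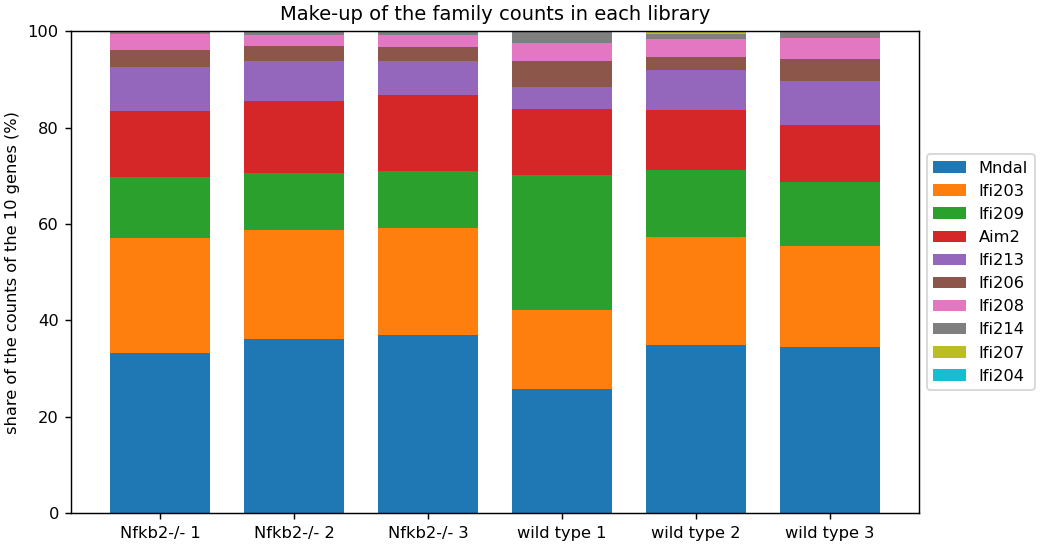
Share of the summed counts of the 10 members held by each gene, in percent, in each Nfkb2-/- and wild-type library. Ifi209 (green) takes 28.0% in wild-type replicate 1 and 11.8% to 13.9% in the other libraries, and the thin grey Ifi214 band is narrower in all Nfkb2-/- libraries.

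Likeness between members was measured as the root mean square difference of log2 CPM over the 6 libraries, each gene centred on its own mean. The smallest value was 0.082, between Mndal and Ifi203. Ifi213 was next, at 0.207 from Ifi203, whereas it was 0.499 from Ifi208, whose promoter window is 94.0% identical to its own. Ifi206 and Ifi209 differed by 0.276, and Ifi206 and Ifi208 by 0.294. Ifi214 was nearest to Ifi209 among the members, at 0.531. By the same measure 12699 genes outside the family were compared with Ifi214. Genes that were not protein-coding, or whose symbols began with Gm or held Rik, were then left out of the ranking. The most alike of the rest were Lynx1 (0.234), Tmem121b (0.247) and Gucy2e (0.262). Lynx1, Tmem121b and Gucy2e lie on chromosomes 15, 6 and 11, and none of them passed the threshold with all 6 libraries (edgeR). Lynx1 and Tmem121b passed it by DESeq2, and by edgeR without wild-type replicate 1, and Gucy2e passed in neither. In Nfkb2-/- Lynx1 had 0.827, 1.06 and 1.3 CPM and Gucy2e 0.497, 0.704 and 0.407 CPM, low levels at which counting error is large.

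Genes around the cluster that are no members were looked at next. Within 1 Mb either side, 71 other genes were annotated, 44 of them at 0 in every library, and only Dusp23, Tagln2, Igsf9 and Pigm were tested. Of these 4, 0 were called by edgeR, DESeq2 or limma-voom, and 0 had an unadjusted p under 0.05. Tagln2, an actin-binding protein gene, had 143, 163 and 173 CPM in Nfkb2-/-, against 68.9, 146 and 136 CPM in wild type, with wild-type replicate 1 once more the lowest. Pigm, an enzyme of glycosylphosphatidylinositol anchor synthesis, had 104, 95.7 and 88.0 CPM in Nfkb2-/-, against 117, 80.5 and 63.8 CPM in wild type. Without wild-type replicate 1 the log2 fold changes were 0.18 for Tagln2, against 0.45 with all libraries, and 0.41 for Pigm, against 0.14. Within 2 Mb, 0 of 30 tested genes were called (edgeR, DESeq2 and limma-voom). An unadjusted p under 0.05 was found for 3 of them, beside 13.6% of all genes tested (edgeR). Without wild-type replicate 1, edgeR called 1 of them higher and 3 lower. In that fit 4.44% of all genes were called lower, and 628 of 13651 were called higher.

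Genes that act with the family were given by lists. Inflammasome genes, which act with Aim2, had 0 of 16 tested members called by edgeR, DESeq2 or limma-voom (1 with an unadjusted p under 0.05), with a median log2 fold change of -0.02. Nek7, a kinase needed by the NLRP3 inflammasome, was at 119 ± 2.64 CPM in Nfkb2-/-, against 150 ± 11.6 CPM in wild type (SD, n = 3 per genotype), a log2 fold change of -0.34 (edgeR adjusted p = 0.234), and Naip2, a sensor of bacterial secretion systems, at 20.2 ± 2.96 and 16.4 ± 0.791 CPM in the same order. Among genes of cytosolic nucleic acid sensing 0 of 28 were called by the 3 tools (1 with an unadjusted p under 0.05, median -0.05). Samhd1, which degrades deoxynucleotides, was at 537 ± 122 CPM in Nfkb2-/-, against 1014 ± 476 CPM in wild type (log2 fold change -0.92, edgeR adjusted p = 0.263), and Ikbke, a kinase of the interferon pathway, at 152 ± 18.5 and 222 ± 85.4 CPM in the same order (-0.55). Wild-type replicate 1 was the highest library for both, and without it the log2 fold changes were -0.46 for Samhd1 and -0.19 for Ikbke.

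Interferon signalling genes had 0 of 20 called by edgeR or limma-voom, 4 with an unadjusted p under 0.05, and 2 higher and 1 lower by DESeq2 (median -0.12). Irf4, a transcription factor of activated lymphocytes, was at 160 ± 42.9 CPM in Nfkb2-/-, against 301 ± 33.3 CPM in wild type (log2 fold change -0.91, edgeR adjusted p = 0.0988); it passed the threshold by DESeq2, with the replicate block and without wild-type replicate 1. Of 52 tested interferon-stimulated genes 0 rose and 2 fell, beside 1.01% and 0.405% of all genes, with a median of -0.15 against -0.03 over all genes tested. DESeq2 called 6 lower, the fit with the replicate block 3 and limma-voom 2, 11 had an unadjusted p under 0.05, and without wild-type replicate 1 edgeR called 1 higher and 9 lower (4.44% of all genes lower). Ifi47, an immunity-related GTPase, fell to 68.5 ± 5.78 CPM in Nfkb2-/-, against 135 ± 11.1 CPM in wild type (log2 fold change -0.98, edgeR adjusted p = 0.0157). Slfn2, a schlafen gene of T cell quiescence, fell to 141 ± 4.36 CPM in Nfkb2-/-, against 269 ± 38.4 CPM in wild type (-0.93, edgeR adjusted p = 0.023). Without wild-type replicate 1 both kept their call; without any other single library Slfn2 lost it, and so did Ifi47 except without wild-type replicate 3.

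Markers of other cells differed between the genotypes for some lists and overlapped for others. The 10 B cell markers all had negative log2 fold changes and 2 fell; DESeq2 called 8 lower, the fit with the replicate block 5, limma-voom 2 and edgeR without wild-type replicate 1 called 9, and 9 had an unadjusted p under 0.05. Cd79a, part of the B cell receptor, fell to 5.33 ± 2.08 CPM in Nfkb2-/-, against 34.7 ± 14.2 CPM in wild type (SD, n = 3 per genotype; log2 fold change -2.70, edgeR adjusted p = 0.023). The summed level of the 10 markers was 34.3, 48.4 and 66.0 CPM in Nfkb2-/-, against 91.6, 309 and 189 CPM in wild type. The library of wild-type replicate 1, highest for Ifi214 and Ifi209, was the lowest of the wild-type libraries for B cell markers. With the B cell marker level as a covariate, 3 members (Ifi206, Ifi209 and Ifi214) were called lower, beside 7.65% of all genes, and the log2 fold changes were -2.40 for Ifi214, -1.57 for Ifi209 and -1.39 for Ifi206. In that fit Ifi213, Mndal and Ifi203 had positive values of 0.65, 0.49 and 0.43. The summed B cell markers did not overlap between genotypes, so this fit cannot separate B cells from genotype. Macrophage and monocyte markers summed to 28.3 to 57.5 CPM in Nfkb2-/-, against 22.5 to 97.3 CPM in wild type, with 0 of 7 tested called by edgeR or limma-voom and 1 higher by DESeq2 (1 with an unadjusted p under 0.05). Dendritic cell markers summed to 124 to 163 CPM in Nfkb2-/-, against 56.2 to 108 CPM in wild type, of which Zbtb46 (102 ± 15.8 and 27.9 ± 13.0 CPM in the same order) was called higher. Without Zbtb46 the sums overlapped, at 37.3, 47.1 and 44.6 CPM in Nfkb2-/-, against 14.2, 83.3 and 54.3 CPM in wild type, and 3 of the 4 other tested markers were negative. NK cell markers summed to 18.4 to 29.6 CPM in Nfkb2-/-, against 8.36 to 14.1 CPM in wild type, of which Eomes was called higher. Without Eomes these sums overlapped too, at 8.61, 3.45 and 4.89 CPM in Nfkb2-/-, against 4.1, 6.49 and 6.55 CPM in wild type. The calls of Cd79a, Zbtb46, Eomes and Nfkb2 held without wild-type replicate 1 and were lost without any other single library. Neutrophil markers summed to 7.67 to 17.2 CPM in Nfkb2-/-, against 2.27 to 36.5 CPM in wild type, and erythroid markers to 21.8 to 37.9 and 31.0 to 56.5 CPM. No marker of these 6 lists of other cells was at 0 in every library. The part of other cells, B cells included, in the members' levels was not tested.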

How the data were processed

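Raw counts of reads per Ensembl gene, whole numbers and not normalized, were deposited for 6 libraries. Per the submitters' processing notes, FastQC, HISAT2, HTSeq and DESeq2 were used with build GRCm38; versions and the counting mode are not given in the sources used here. Per the labels' protocols the kit was unstranded. Symbols and exons came from GENCODE M21, which matched 55480 of 55573 identifiers. Members, lists and rules were chosen with earlier results of these data known. Counts were fitted with edgeR 4.0.16 (R 4.3.3, filterByExpr, TMM, robust quasi-likelihood, genotype as the only term). Benjamini-Hochberg adjustment ran over 13347 genes tested, with threshold 0.05. The fit was run on simulated counts with large known changes and no outlying library. That run checks the code and not how well the fit suits these data. The labels call the libraries biological repeats. Same-numbered libraries deviated together (0.364, 0.267 and 0.111, each over 0.1). Replicate 3 of Nfkb2-/- was closer to replicate 2 of wild type (0.251) than to its own number, so a pairing by number is uncertain. The main fit did not use it. The replicate block was an alternative, with DESeq2 1.42.0 and limma 3.58.1. Named were all members, the other genes of the locus, tested neighbours within 1 Mb, and up to 4 called genes a list or else the 2 with the smallest p. Also named were the 3 protein-coding genes most like each called member, leaving out symbols that begin with Gm or hold Rik. Some genes that this rule names are not reported here. RefSeq promoters were aligned with Biopython 1.88. Transcript windows of 50 bases stand for reads, whose length is not given here. Reads that fit several similar members may have been dropped or split, so single members are uncertain. Intervals and floors cover counting error only.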

Additional observations from a re-analysis of the deposited data

How the results depend on the processing

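The log2 fold change of Ifi214 stayed negative in all 15 alternatives, between -2.40 and -1.42, and kept its call in 7 of them. Ifi206, Ifi208 and Ifi209 also stayed negative in all 15, whereas Ifi213, Mndal, Ifi203 and Aim2 changed sign in some. Members called lower numbered 0 in limma-voom, 0 with the replicate block, 0 with the Y-linked covariate, 3 with the B cell covariate, and 0 to 1 with each library left out; members called higher numbered 0 throughout. The summed family ran from -0.29 to -0.13 with each library left out, was -0.19 with the replicate block and with all 14 annotated genes summed, was -0.12 with the B cell covariate, and was -0.40 with the Y-linked covariate. Over all genes, 135 were called higher and 54 lower; these counts were 292 and 174 with no count filter, 428 and 252 by DESeq2, 196 and 93 with the replicate block, 757 and 1021 with the B cell covariate, 6 and 1 with the Y-linked covariate, and 6 to 628 and 1 to 606 with each library left out. Within 5 Mb of the cluster 1 of 62 tested neighbours, Uap1, was called higher, where 1.01% of all genes were. Of these 62, DESeq2 called 1 higher and 2 lower, the replicate block 1 and 1, and edgeR without wild-type replicate 1 called 2 and 5. Over all genes these fits called 1.89%, 0.697% and 4.44% lower, in the same order. Without wild-type replicate 1, 628 of all 13651 genes tested were called higher. The cause of the shifts between alternatives was not tested. Depth limits Ifi214 (25 to 189 counts a library), and Ifi204 and Ifi207 were too low to compare.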
